A study of Mus musculus with 12 samples.

Results

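Bone morphogenetic proteins (BMPs) act through surface receptors that pair type I with type II chains. The type I receptors, among them Bmpr1a and Bmpr1b, phosphorylate Smad1 and Smad5, which enter the nucleus with Smad4. Smad6 and Smad7 inhibit the pathway, and the Id genes are classic targets whose proteins bind basic helix-loop-helix factors and keep them off DNA. In the limb bud the pathway is known for its parts in digit formation, cartilage differentiation and the death of interdigital tissue.

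Described here are the probe sets annotated to exactly 1 of 10 genes of this pathway: Id1, Id2, Id3, Id4, Bmpr1a, Bmpr1b, Smad1, Smad5, Smad6 and Smad7. They are 10 of 18193 genes named by single-gene probe sets, and they have 26 of 45137 probe sets that are not controls. Affymetrix MOE430 GeneChips come as a pair, and 20 of the 26 lie on the A design and 6 on the B design. Every Id gene probe set was on the A design. RNA came from dissected autopods, the future hands and feet, of wild-type mice at E12.5. Forelimb samples carry the numbers 11, 13 and 25 and hindlimb samples 12, 14 and 26, 3 per limb, and each was run on both designs. No sample carried a mutation or a treatment by the labels. Whether a sample was a single embryo or a pool is not given in the sources used here, so the p-values describe no more than the spread among these 6 samples, which may be technical.

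Values are MAS5.0 signals brought to a 2% trimmed mean of 500 on every array, and differences are hindlimb minus forelimb on log2(signal + 32) (dim probe sets change by more than this scale shows). Tested by limma were probe sets that reached 100 on 3 or more arrays of their design, 15338 on the A and 17145 on the B design. Its p-values were adjusted over all of them with a threshold of 0.05. The limb labels were borne out by Tbx5, the forelimb T-box factor, whose forelimb signals (474 to 555, forelimb 11 included) were far above the hindlimb ones (8.0 to 13.9). Both Pitx1 and Tbx4, hindlimb factors, had every hindlimb signal above every forelimb one. The A array of forelimb 11 names its limb in the title alone. Mesenchyme was present in all samples, with 7 of 8 marker genes above the filter on the A array and Lmx1b below it. The summed signal of the 8 was 12667 to 13951 in forelimb and 11004 to 13487 in hindlimb. All 7 tested mesenchyme genes had a difference below 0 on the A array (median -0.11). On the B array 1 of 4 tested did, Lmx1b (-0.40), and the median was 0.062. As a sign of RNA quality, Gapdh signals near the 3′ end over those near the 5′ end had log2 values of -0.24 to -0.08 for forelimb and -0.30 to -0.26 for hindlimb A arrays, without overlap. On the B arrays this Gapdh ratio overlapped between the limbs, at -0.25 to -0.07 for forelimb and -0.17 to -0.11 for hindlimb. In bulk tissue, fewer cells of a type and less RNA per cell cannot be told apart.

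The start-site regions of 8 of the 10 genes were taken from a RefSeq table (GRCm38.p6, 250 bases before to 50 after each start). No region of Id1 or Smad7 was searched for the motifs below. Those of Id2, Id3 and Id4 are shown up to the start because the Id genes are compared with each other here. Capitals mark GGCGCC, a GC-rich sequence known to bind BMP-activated Smads, and all bases run 5′ to 3′ on the gene's strand.
Id2, chr12:25096093-25096342, minus strand: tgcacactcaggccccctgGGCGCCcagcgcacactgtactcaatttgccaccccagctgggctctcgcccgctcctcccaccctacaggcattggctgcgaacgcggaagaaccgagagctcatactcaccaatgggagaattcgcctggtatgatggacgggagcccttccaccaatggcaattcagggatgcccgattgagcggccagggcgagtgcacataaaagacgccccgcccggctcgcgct
Id3, chr4:136143572-136143821, plus strand: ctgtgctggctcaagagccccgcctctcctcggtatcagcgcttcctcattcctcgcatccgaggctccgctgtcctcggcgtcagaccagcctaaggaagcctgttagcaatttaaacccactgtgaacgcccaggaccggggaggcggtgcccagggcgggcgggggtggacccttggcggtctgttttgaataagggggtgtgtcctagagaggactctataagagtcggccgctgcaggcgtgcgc
Id4, chr13:48260866-48261115, plus strand: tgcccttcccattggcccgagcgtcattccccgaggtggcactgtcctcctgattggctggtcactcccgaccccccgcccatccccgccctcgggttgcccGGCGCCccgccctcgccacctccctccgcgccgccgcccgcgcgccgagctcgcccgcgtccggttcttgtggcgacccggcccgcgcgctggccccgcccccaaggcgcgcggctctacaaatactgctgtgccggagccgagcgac

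The motif began 231 bases before the start in Id2 and 148 before it in Id4, and the Id3 window held none. GGCGCC, which reads alike on both strands, occurred in 11.9% of the 32817 mouse windows of 300 bases, so its presence is not rare. It was also in the Bmpr1a window and in 2 of 3 Smad5 windows, which overlap and share the same site. Guanine and cytosine made up 75.6% of the 250 bases before Id4 and 62.8% of those before each of Id2 and Id3. A second motif, GTCTAGAC, is the palindrome known to bind Smads and reads alike on both strands. It lay across the start of Smad6, with 4 bases before and 4 after it, and occurred in 0.213% of all windows. The Smad6 site is shown with the palindrome in capitals. It was picked because Smad6 was 1 of 2 genes here whose limbs did not overlap on a probe set. On the A array 11% of all tested probe sets did not overlap, so this does not set Smad6 apart.
Smad6, chr9:64022045-64022074, minus strand: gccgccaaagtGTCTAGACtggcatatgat
A match is a description of these letters only, and binding was not measured.

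None of the 24 member probe sets above the signal filter passed the threshold in limma. On the A array 0 of 19 passed, where 0.0326% of all tested probe sets did, and 3 of 19 had an unadjusted p under 0.05, where 5.54% of all did. These 3 belonged to Id4 (2 probe sets) and Smad6. On the B array 0 of 5 passed (0.0117% of all), and 0 had an unadjusted p under 0.05 (5.54% of all). Hindlimb and forelimb did not overlap on 2 of 19 member probe sets of the A array, where 11% of all tested did not (6.1% with hindlimb below, as both members), and on 0 of 5 of the B array, where 10.9% did not. On the A array 16 of 19 member differences were negative, beside 52.2% of all tested there, and on the B array 1 of 5 was, beside 52.2%. The median difference was -0.11 over the 19, beside -0.0086 over all tested probe sets of the A array, and 0.091 over the 5 of the B array, beside -0.014.

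**Figure D1:**
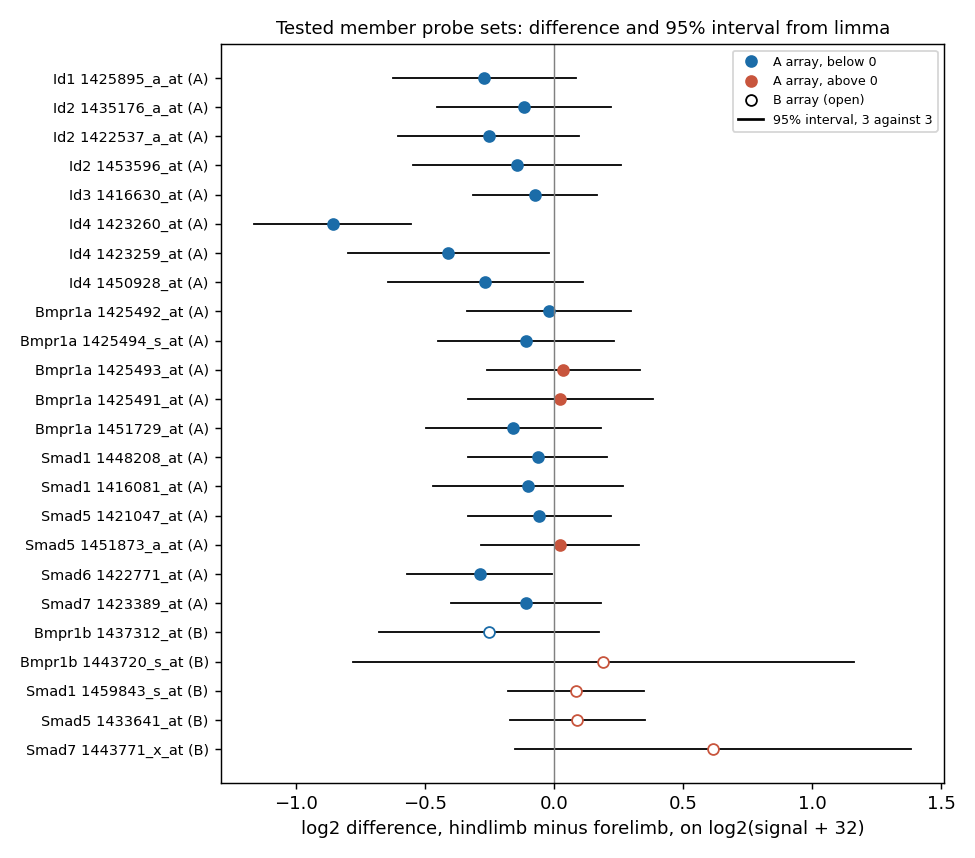
Log2 difference, hindlimb minus forelimb on log2(signal + 32), for the 24 tested probe sets, with the 95% interval from limma as a line (3 samples against 3). Filled points are A array and open points B array probe sets. An Id4 probe set stands at -0.86, most others lie within 0.3 of 0, and the widest intervals belong to dim B array probe sets of Bmpr1b and Smad7.

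Id4, an Id gene also known from neural and skeletal precursors, had the lowest difference of all members. Its brightest probe set (1423260_at) read 510.6, 461.2 and 445.7 in forelimb 11, 13 and 25 and 274.6, 227.5 and 238.1 in hindlimb 12, 14 and 26. Every hindlimb sample lay below every forelimb sample, with a wide gap between the limbs. The difference was -0.86 ± 0.14 (SE, 95% interval -1.16 to -0.55, n = 3 per limb), and the mean hindlimb signal was 0.522 of the forelimb mean. Its limma p was the 9th smallest of the design, yet the adjusted p of 0.104 missed the threshold. With array weights the same probe set passed (limma adjusted p = 0.0476, difference -0.83). In the other 10 settings with all samples the adjusted p ran up to 0.258, without the signal filter, and with a sample left out it ran from 0.121 to 0.386.

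The other Id4 probe sets pointed the same way with smaller values. On 1423259_at the forelimb signals were 290.2, 244.6 and 290.3 and the hindlimb signals 160.4, 255.9 and 189.2. Hindlimb 14 lay among the forelimb samples there, so the limbs overlapped. The difference was -0.41 ± 0.18 (limma adjusted p = 0.877). On 1450928_at, the dimmest, forelimb had 250.9, 188.8 and 199.9 and hindlimb 146.8, 168.7 and 200.4, with a difference of -0.27 ± 0.17 (adjusted p = 0.955). Here hindlimb 26 reached the level of forelimb 25. All 3 Id4 probe sets were designed on the same source sequence in the annotation. They share a sign but not a size, and the interval of the first, which ends at -0.55, leaves out the value of the other two.

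Id1, known as a rapid BMP target, was measured by 1 probe set (1425895_a_at). The forelimb samples had 3564.9, 3178.1 and 2997.7 and the hindlimb samples 2021.4, 3026.4 and 3144.1. Hindlimb 12 was low, while the other hindlimb samples lay within the forelimb range. The difference of -0.27 ± 0.16 (limma adjusted p = 0.95) became -0.07 without hindlimb 12. On the log2 scale the hindlimb SD was 0.35 and the forelimb SD 0.13.

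Id3, which often follows Id1 in its expression, read 3363, 3130.5 and 2798.6 in forelimb against 2809.3, 3158.3 and 2849.3 in hindlimb (1416630_at). The limbs overlapped throughout. Its difference was -0.07 ± 0.11 (95% interval -0.31 to 0.17, limma adjusted p = 0.992). Hindlimb 12, low for Id1, was at the level of forelimb 25 for Id3.

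Id2, an Id gene also known from limb mesenchyme and interdigital tissue, had 3 probe sets. The brightest (1435176_a_at) had 1995.4, 1888.7 and 1626.1 in forelimb and 1742, 2020.2 and 1361.6 in hindlimb, with a difference of -0.12 ± 0.15. The second (1422537_a_at) had 1525.5, 1535.1 and 1215.2 in forelimb and 1468.4, 1110 and 1017.7 in hindlimb, with a difference of -0.25 ± 0.16. Hindlimb 14 was the highest hindlimb sample on the first and not on the second, so these probe sets did not rank the hindlimb samples alike. The third and dimmest (1453596_at) had a difference of -0.14 ± 0.18, and the limbs overlapped on all 3 (limma adjusted p of 0.955 to 0.982). The sign of the brightest turned without hindlimb 26 (0.035).

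**Figure D2:**
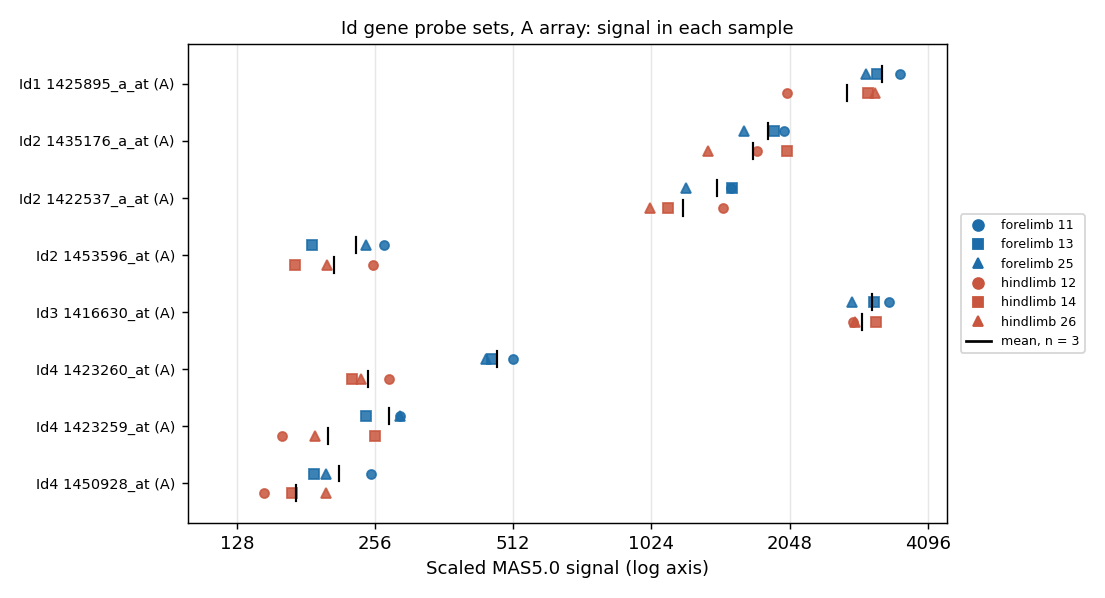
Scaled MAS5.0 signal (log axis) of the 8 Id gene probe sets in all 6 samples of the A design, with blue points for forelimb, red for hindlimb and a black bar for the mean of 3. On the top Id4 probe set the hindlimb points (227.5 to 274.6) all lie left of the forelimb points (445.7 to 510.6), and on the other 7 the limbs overlap.

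All 8 Id probe sets had differences below 0 (median -0.26). To ask whether Id4 differed between the limbs by another amount than its relatives, the log2 ratio of the brightest probe sets of each pair of Id genes was taken within each array. Such a ratio shows unequal change and gives no order of levels, as probe sets differ in brightness for the same amount of RNA. With 3 samples against 3, the smallest two-sided p of the exact permutation test is 0.1, so none of the 6 pairs could pass 0.05.

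With these settings the Id4 ratios were below the forelimb level in every hindlimb sample against each of the other Id genes. For Id1 this rested on a small gap. Against Id3 the ratio went from a forelimb mean of -2.63 ± 0.06 (SD, n = 3) to -3.42 ± 0.20, a difference of -0.78 (exact permutation p = 0.1, 0.2 after adjustment over the 6 pairs). Against Id2 the difference was -0.74, from -1.89 ± 0.08 to -2.63 ± 0.32, with the same exact p of 0.1. Against Id1 it was -0.59 (exact p = 0.1), from -2.70 ± 0.03 to -3.29 ± 0.47. Hindlimb 12, at -2.74, was close to the forelimb value of -2.73 in forelimb 11 on this last ratio, and Id1 was low there as well. The limbs overlapped on the Id4 to Id1 ratio with a pseudocount of 100 or quantile normalization (exact permutation p = 0.4 in both), deposited values (exact p = 0.2) or means over probe sets (exact p = 0.3). On the ratios to Id2 and Id3 they did not overlap under any of these.

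With all samples, ratios that did not involve Id4 overlapped between the limbs. Id2 minus Id1 differed by 0.15 (exact permutation p = 0.7), Id3 minus Id1 by 0.20 (exact p = 0.4) and Id3 minus Id2 by 0.043 (exact p = 1). These hindlimb ratios spread more widely than the forelimb ones: for Id2 minus Id1 the SD was 0.49 in hindlimb and 0.066 in forelimb. Without hindlimb 26 these ratios did not overlap either. The differences were then 0.42 for Id2 minus Id1, 0.33 for Id3 minus Id1 and -0.087 for Id3 minus Id2. With the mean over all tested probe sets of a gene in place of the brightest, the 3 Id4 differences shrank to -0.24 against Id1, -0.34 against Id2 and -0.44 against Id3.

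**Figure D3:**
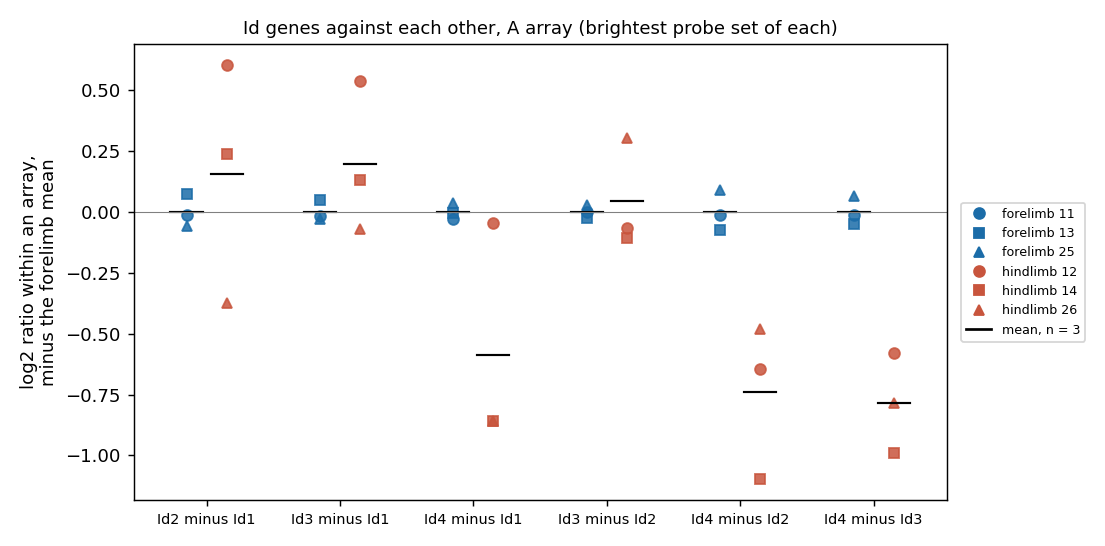
Log2 ratio of 2 Id genes within an A array, minus its forelimb mean, for the 6 pairs in each sample, with forelimb in blue, hindlimb in red and a black bar for the mean of 3. The 3 pairs with Id4 have hindlimb means of -0.59, -0.74 and -0.78, and the hindlimb points of the pairs without Id4 scatter around the forelimb points.

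Markers of other tissues were read on the A array, as some stood apart by limb like the brightest Id4 probe set, and 0 of them passed the threshold. Of 10 tested surface ectoderm genes 6 were negative (median -0.021), and Fgf8 was below the filter. The summed signal of all 11 listed was 4955 to 6099 in forelimb and 3903 to 4670 in hindlimb, without overlap. Krt15 (-1.38), Krt14 (-0.83), Tfap2a (-0.52) and Krt5 (-0.40) were the lowest, and Epcam (-0.01) and Wnt7a (-0.03) were near 0. Krt18 (0.31), Krt8 (0.28), Trp63 (0.09) and Cdh1 (0.01) were positive. Skeletal muscle had 8 of 8 tested genes negative and sums over 11 genes of 1801 to 2507 and 1478 to 1760, also without overlap, with Myf5, Pax3 and Pax7 below the filter. Cartilage had 6 of 8 negative, a median of -0.47, and sums over 9 genes of 10127 to 11555 and 8301 to 10747. These sums, of which Col9a1 (difference 0.19) made up a large part, overlapped. The mean log2(signal + 32) of the 9 genes did not (9.21 to 9.37 in forelimb, 8.88 to 8.91 in hindlimb). Nor did 4 of the 8 tested genes, all with hindlimb below, as were 6.1% of all tested A array probe sets. Of the 10 tested ectoderm genes 4 also parted with hindlimb below and 1 with hindlimb above. Matn1 was below the filter. For endothelium, a tissue known for Id1 and Id3, 7 of 11 were negative and the sums overlapped (3569 to 3942 and 3389 to 3810), with Tie1 below the filter. Nerve and Schwann precursor genes (2 of 5 negative, sums 1354 to 1401 and 1131 to 1430, Foxd3 and Tubb3 below the filter), macrophage genes (3 of 7, 1949 to 2175 and 1887 to 2046, Aif1, C1qa, Fcer1g and Ptprc below) and erythroid genes (2 of 7, 28976 to 31819 and 32428 to 35921, Hba-a1 below) had positive differences in most of their tested genes. The erythroid sums parted with hindlimb above, while the mean log2 of those genes overlapped. No listed marker was at 0. The part of these markers, and of the Gapdh ratio above, in the Id4 values was not tested.

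Measured by Pearson r over the 6 A arrays, the probe sets most like the brightest of Id4 belonged to Krt15, a basal keratin (r = 0.991, difference -1.38), Htra1, a secreted protease (0.986, -0.40), and Ihh, a hedgehog ligand of differentiating cartilage (0.985, -0.52). For Id1 they were Ids (0.987), Jmjd6 (0.985) and the muscle factor Myog (0.982), for Id2 Agap3 (0.996), Zic4 (0.985) and Snap91 (0.974), and for Id3 Ufm1 (0.983), Lbp (0.981) and Pdha1 (0.978). With 14092 probe sets searched over 6 arrays, 51 to 151 reached an r above 0.9 for each Id gene. The named ones were picked as the highest of that search, so their r shows no link by itself. None of these 12 probe sets passed the limma threshold (adjusted p of 0.059 for Krt15 and 0.619 to 0.995 for the rest).

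Among the receptors, Bmpr1a, widely expressed in limb mesenchyme, gave values near 0. Its brightest A probe set (1425492_at) had 1905.7, 2212.8 and 1910.9 in forelimb and 2417, 1676.4 and 1906.2 in hindlimb. The hindlimb samples held both the highest and the lowest value. The difference was -0.02 ± 0.14 (95% interval -0.34 to 0.30, limma adjusted p = 0.997). The other 4 probe sets of Bmpr1a on the A array had differences of -0.16 to 0.035 with overlapping limbs, and all 5 together had intervals within -0.50 and 0.38. A probe set on the B array (1445413_at) was below the filter in all samples, at 33.6 to 35 in forelimb and 12.9 to 34.3 in hindlimb.

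Bmpr1b, known from the digit condensations, could be tested on the B array only. Its bright probe set (1437312_at) had 1896.2, 1394.1 and 2518.2 in forelimb and 1410.5, 1641.9 and 1688.4 in hindlimb. The forelimb samples spread around the whole hindlimb range. The difference was -0.25 ± 0.19 (95% interval -0.68 to 0.18, limma adjusted p = 0.924), and it was -0.045 without forelimb 25 and -0.46 without forelimb 13. A dim one (1443720_s_at; the suffix marks probes shared by several transcripts) gave 0.19 ± 0.44 and was negative without forelimb 13 or hindlimb 14. On the A array the Bmpr1b probe set reached 100 on 2 of 6 arrays only (63.3 to 111.4 in forelimb, 71.1 to 92 in hindlimb).

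The receptor-activated Smads, which carry the signal to the nucleus, had differences near 0, with standard errors of 0.12 to 0.17. Smad1 on the A array (1448208_at) had 949.6, 901.5 and 882.5 in forelimb and 794.2, 891.3 and 932.6 in hindlimb, a difference of -0.06 ± 0.12. On the B array Smad1 was read by 1459843_s_at, whose suffix marks probes shared by several transcripts. It had 2101.9, 2296.1 and 2376.8 in forelimb and 2538.9, 2221.1 and 2441.1 in hindlimb, a difference of 0.087 ± 0.12. The sign thus differed between the designs, and both intervals held 0 (-0.33 to 0.21 and -0.18 to 0.35). The dimmer Smad1 probe set on the A array gave -0.10 ± 0.17.

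Smad5 gave values of the same size. On the A array 1421047_at had 1057.1, 929.4 and 959 in forelimb and 861.3, 1036.7 and 934.4 in hindlimb (-0.06 ± 0.13), and 1451873_a_at gave 0.023 ± 0.14. On the B array 1433641_at had 5041.5, 6274.9 and 6063.5 in forelimb and 6171.3, 6157.7 and 6107.1 in hindlimb. There 1 forelimb sample was low and the 3 hindlimb samples were nearly equal, and the difference was 0.091 ± 0.12 (95% interval -0.17 to 0.35). The limma adjusted p of the 6 Smad1 and Smad5 probe sets was 0.951 to 0.997, which does not show that the limbs are equal; the intervals reach from -0.47 to 0.35.

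Of the inhibitory Smads, Smad6, an antagonist that BMP signalling itself induces, had 613.1, 550.4 and 563.4 in forelimb and 481.4, 485.7 and 430.7 in hindlimb (1422771_at). Each hindlimb sample was below each forelimb sample, as on 1 of the 3 Id4 probe sets. The difference was -0.29 ± 0.13 (95% interval -0.57 to -0.0075, limma adjusted p = 0.888), with a mean hindlimb signal at 0.809 of the forelimb mean. It was -0.32 to -0.24 with a sample left out. The B array carried no Smad6 probe set in this annotation.

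Smad7, which inhibits BMP and TGF-beta signalling alike, gave opposite signs on the designs. The A array (1423389_at) had 609.4, 727.6 and 703.8 in forelimb and 575.3, 671.4 and 636.2 in hindlimb, with overlapping limbs and a difference of -0.11 ± 0.13. The B array (1443771_x_at; the suffix marks probes that may bind other transcripts) had 113.6, 187.1 and 233.5 in forelimb and 230.7, 457.8 and 205 in hindlimb. Hindlimb 14 stood above the rest there. The difference was 0.62 ± 0.35 (95% interval -0.15 to 1.38, limma adjusted p = 0.904), and it was 0.29 without hindlimb 14.

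**Figure D4:**
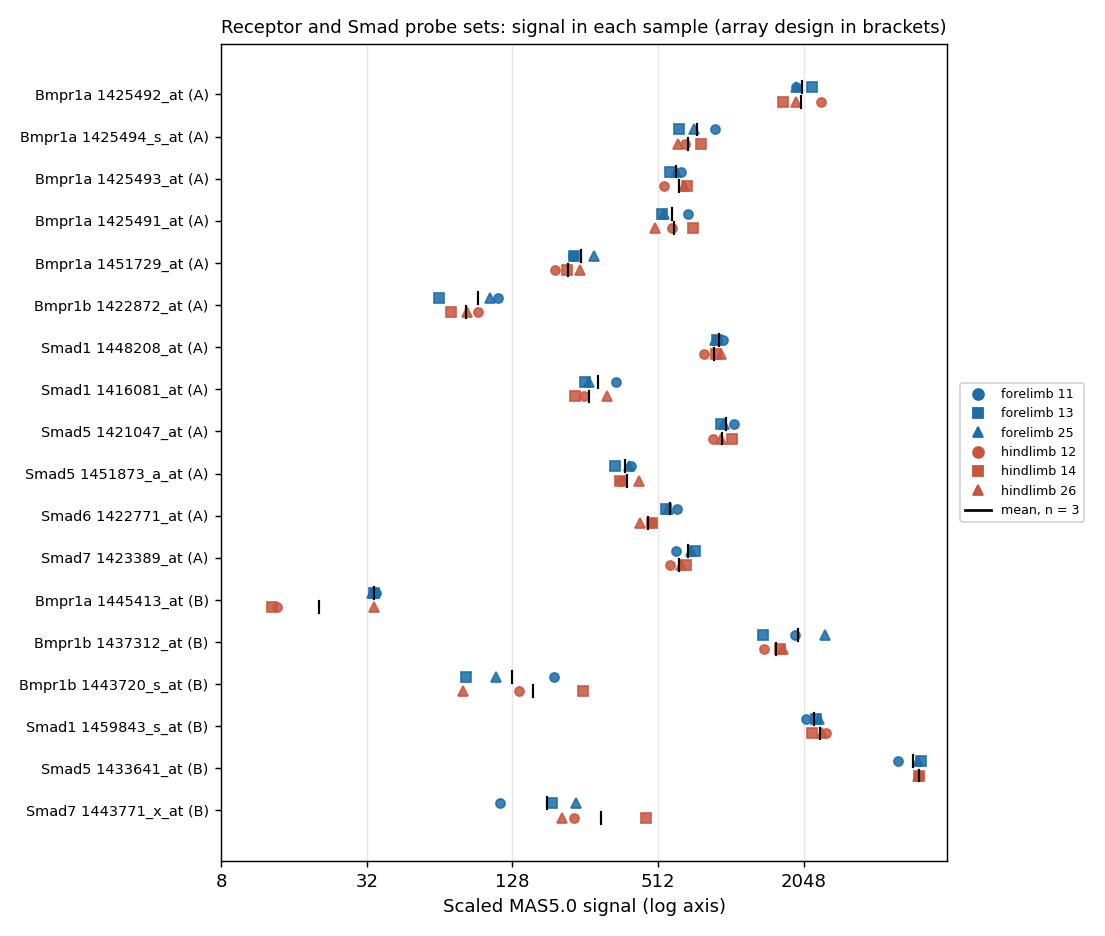
Scaled MAS5.0 signal (log axis) of the 18 receptor and Smad probe sets in each sample, with the array design in brackets, forelimb in blue, hindlimb in red and a black bar for the mean of 3. Levels of the A and B designs are not on one scale. The Smad6 points part by limb (430.7 to 485.7 in hindlimb, 550.4 to 613.1 in forelimb), and the dim B array probe sets scatter most.

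The rest of the pathway was read from lists, by the brightest tested probe set of each gene, and 0 genes of any list passed the threshold on either design. Of 7 other receptor genes on the A array 2 were negative (median 0.042), with Bambi, a pseudoreceptor, at -0.25 and Acvr2a, a type II receptor, at 0.23. Of 3 on the B array 1 was negative (median 0.028), with Acvr2b at 0.19 and the type II receptor Bmpr2 at -0.03. Of 14 other Smads and Smad regulators on the A array 9 were negative (median -0.05), and of 8 on the B array 5 were (-0.05). Ski, a Smad corepressor, had -0.38 (A) and -0.17 (B), Zeb2, a Smad-binding repressor, -0.49 (A), and Smad2 0.18 on the B array.

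Upstream, 5 of 6 ligands on the A array were negative (median -0.14). Gdf5, a ligand of forming joints, had -0.60 and Bmp7 -0.56, both without overlap of the limbs, while Bmp5, the 1 ligand tested on the B array, had 0.53 with hindlimb above. Of 11 antagonists and extracellular regulators on the A array 8 were negative (median -0.15), and of 3 on the B array 2 (median -0.30). Chrdl1, a chordin-like BMP antagonist, went the other way on both designs, with every hindlimb sample above every forelimb sample. Its A array signals were 86.3, 106.4 and 111.4 in forelimb and 191.1, 160.4 and 178.8 in hindlimb, a difference of 0.65 ± 0.17 (limma adjusted p = 0.533). On the B array they were 182.1, 171.4 and 250.7 against 335.7, 500.6 and 467.1, a difference of 0.996 ± 0.24 (adjusted p = 0.747). Fst, follistatin, had -0.68 on the A array and Bmper, a BMP-binding regulator, -0.30 on the B array, both with forelimb above. On the B array Fst had -0.34 with overlapping limbs.

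Downstream, 7 of 10 transcription factors known to respond to BMP in the limb were negative on the A array (median -0.13) and 2 of 5 on the B array (median 0.15). Msx2, a homeobox target of BMP signalling, read 1040.8, 1160.7 and 1118.4 in forelimb A arrays and 809.5, 861.9 and 909.6 in hindlimb ones. The limbs did not overlap there, and the difference was -0.35 ± 0.12 (limma adjusted p = 0.684). On the B array Msx2 had 459.2, 795.6 and 350.7 against 515.6, 593.5 and 588.5, with overlapping limbs and a difference of the other sign, 0.15 ± 0.26. Hand1 overlapped between the limbs (A array, -0.47), as did Hand2 (B array, 0.33), while Tbx3 did not (B array, -0.57). Of the helix-loop-helix partners and relatives of Id proteins 8 of 10 were negative on the A array (median -0.11) and 2 of 4 on the B array (-0.15). Twist2, a mesenchymal repressor, had 764.5, 945.7 and 801.9 in forelimb A arrays and 671.7, 406 and 509.1 in hindlimb ones (-0.65 ± 0.18, limma adjusted p = 0.552). Hes1 had -0.31 on that design, and the limbs overlapped for neither gene. Tcf21 had -0.38 on the B array with overlapping limbs. The E protein Tcf12 went the other way with either design, every hindlimb sample lying above every forelimb sample. Its differences were 0.23 (A array) and 0.17 (B array).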

How the data were processed

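Total RNA of 6 samples was hybridised to 12 arrays. The authors deposited linear intensities, which the labels call MAS5.0 signals (1 A array lacks that note). Each array had been scaled before deposit, since the trimmed mean was 350.1 on all A and 70.0 on all B arrays. For the software version and detection calls, nothing is given in the sources used here. Rescaling to 500 multiplied the B arrays by 7.14 and the A arrays by 1.43, which makes the filter laxer on the B arrays. No level was set against one of the other design. Symbols came from the platform annotation, updated by gene identifier with a RefSeq table of GRCm38.p6; 20364 of 20393 single-symbol probe sets matched on the A array and 14499 of 14674 on the B array. The 64 control probe sets per design were left out.

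Limbs were compared within a design with limma 3.58.1 (R 4.3.3; lmFit, eBayes with trend, two-sided, Benjamini-Hochberg). The fit was tested on data simulated from its own model, which checks the code and not how well that model describes these arrays. Figures used matplotlib 3.10.9 in Python 3.11.15. Precision is limited by the number of arrays (median standard error 0.16 on A, 0.23 on B). Each gene's brightest probe set over the 6 arrays stood for it in pairs and lists. Of each list, genes past the threshold were to be named, or else the 2 of smallest p; for each Id gene, the 3 most similar probe sets. The members and lists were chosen with earlier results of these data known. As alternatives, each sample was left out in turn, the filter was dropped or set to 200, the pseudocount was 1 or 100, and deposited or quantile-normalized values were used. Array weights, no trend, consecutive sample numbers as a block, 1 probe set per gene, means over a gene's probe sets (pairs) and adjustment over both designs were also tried.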

Additional observations from a re-analysis of the deposited data

How the results depend on the processing

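The count of member probe sets past the threshold stayed at 0 on both designs under every alternative run except array weights on the A array, where it was 1 (Id4). Over all probe sets of the A array, 5 passed; this became 1 without the filter, 14 with array weights, 8 with the replicate block of consecutive sample numbers, and 3 to 9 with a sample left out (9 without hindlimb 12, 3 without any other). On the B array 2 passed; this became 1 without the filter, 3 with deposited values, array weights or adjustment over both designs, 0 without the trend, 4 with the block, and 1 to 4 with a sample left out. The labels do not say that consecutive numbers pair samples. Of the 24 tested member probe sets, 13 kept their sign in every fit, those of Id1, Id3, Id4 and Smad6 among them. With array weights Smad1 (1416081_at) turned to 0.0086 and Bmpr1a (1425491_at) to -0.0054. With a sample left out, signs turned for 11 probe sets. The ranges were -0.21 to 0.020 and -0.11 to 0.0015 for Smad1 on the A array, -0.12 to 0.0055 and -0.053 to 0.064 for Smad5 there and -0.0054 to 0.15 on the B array. They were -0.10 to 0.14, -0.16 to 0.097, -0.021 to 0.13 and -0.22 to 0.019 for Bmpr1a, -0.24 to 0.035 for the brightest Id2 probe set and -0.16 to 0.51 for the dim Bmpr1b probe set. The Id2 minus Id1 difference ran from -0.069 to 0.42 and that of Id3 minus Id2 from -0.087 to 0.12; the 3 differences with Id4 stayed negative in all 11 alternatives, between -0.89 and -0.24. The cause of these shifts was not tested. Pairs on the B array were not run, as no Id probe set lies on it.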
